A study of Mus musculus with 4 samples.

Results

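Hand2NC embryos were compared with wild-type embryos at embryonic day (E) 11.5 on 2 of the 4 arrays of the series, 1 array per genotype. The genes compared were the bright ones, whose brighter E11.5 array lay at or above the 75th percentile of all signals on that array, which stood at 495 for the wild-type and at 503 for Hand2NC. Of 18193 genes with a probe set that carries a single gene symbol, 7237 met this rule. Where a gene had several probe sets it was read by the one that was brightest on average over all 4 arrays, and its value is the log2 ratio of the Hand2NC signal to the wild-type signal after both arrays had been scaled to the same 2% trimmed mean. Since the brighter array decides, a gene could pass through the genotype in which its signal was high. The genes nearest to the filter were *Tars2* on the inside, with signals of 495 in the wild-type and 391 in Hand2NC, and *Wdr53* on the outside, with 492 and 503, the latter just under the limit before rounding.

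Hand2NC embryos had the genotype Hand2 CAT/+; Wnt1-Cre. In this genotype, Wnt1-Cre removes a floxed CAT cassette from a transgene under the ubiquitous CAG promoter, so that *Hand2* is overexpressed in cells of the Wnt1 lineage, chiefly the neural crest, whereas the other cells of the embryo keep the unrecombined transgene. The controls were labelled wild-type and, per the methods, were littermates. Both groups had a mixed C57BL/6J x ICR background. Whole bodies were labelled as the tissue at E11.5 and heads at E12.5, and RNA was pooled before hybridisation, per the methods. A legend of the study names heads for the E11.5 arrays too, and the labels were followed here. With 1 pooled array per genotype, no difference below has a replicate check or a p-value, and precision is limited by the number of arrays.

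Hand2 is a basic helix-loop-helix transcription factor that dimerises with related factors and binds E-boxes, short DNA motifs of the form CANNTG. In the embryo it acts in the heart, the limb buds, the sympathetic ganglia and the ventral part of the branchial arches. In the arches endothelin signalling and Dlx homeobox factors lie upstream of it, and it takes part in giving the lower jaw its identity.

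The tissue label was checked against markers. All 7 heart muscle markers were above the filter at E11.5, with a median signal of 1807 in the wild-type against 23.2 in the wild-type E12.5 heads, where 2 of 7 were above it. Of 5 hepatocyte markers, 4 were above the filter at E11.5, with a median of 9010 against 37.0 in the heads. All 4 erythroid markers with a named probe set and all 4 neuronal ones were above it, whereas *Sox10*, which marks neural crest glia, lay below it with signals of 272 and 170. The E11.5 arrays thus held RNA of heart and liver, which the head arrays held at low signals. In such bulk RNA, fewer cells of a type and less RNA per cell cannot be told apart. The 3′ to 5′ ratio of the control genes, which reads RNA integrity, was 1.48 in the wild-type and 1.42 in Hand2NC for *Actb* and 0.857 and 0.890 for *Gapdh*.

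Bright genes had nearly the same signal in both genotypes. The 5th and 95th percentiles of the log2 ratios were -0.24 and 0.26, the standard deviation was 0.16 and the median was -0.02. Of the 7237 genes, 3261 (45.1%) had a log2 ratio above 0 and 3976 (54.9%) one below 0, and 6921 (95.6%) were less than 0.32 apart on the log2 scale, the smallest difference counted. Past it, 187 genes were higher (2.58%) and 129 lower (1.78%) in Hand2NC. At least 1.5-fold, 15 genes were higher (0.207%) and 17 lower (0.235%), 32 in all (0.442%). At least 2-fold, 2 were higher (0.0276%) and 1 was lower (0.0138%), 3 in all (0.0415%). These counts depend on the scaling: centring the arrays on their medians gave 10 higher and 24 lower at 1.5-fold, quantile normalization 12 and 22, and a loess fit 13 and 21. The spread narrowed as the signal increased, from a standard deviation of 0.20 in the dimmest of 5 equal bins of signal to 0.13 in the brightest. In the dimmest bin 10 genes were higher and 8 lower at 1.5-fold, against 1 and 1 in the brightest. In 15 of the 32 the dimmer array was below its own 75th percentile, against 348 (4.81%) of all genes. No chromosome stood apart, and the medians of the autosomes and of the X chromosome lay between -0.03 and 0.00.

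**Figure D1:**
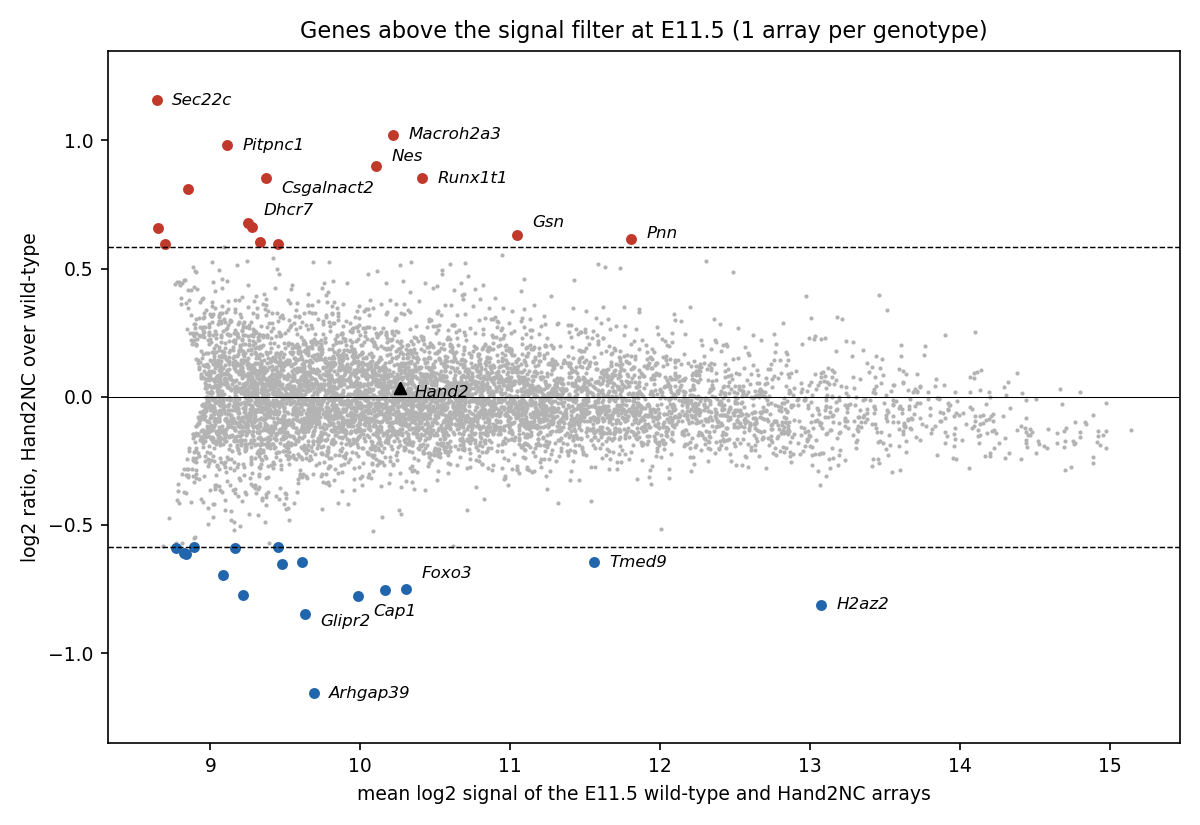
Log2 ratio of Hand2NC to wild-type (vertical axis) against the mean log2 signal of both E11.5 arrays (horizontal axis), 1 point per gene above the signal filter; dashed lines mark 1.5-fold, red points are the 15 genes higher and blue points the 17 genes lower, and the triangle is the brightest *Hand2* probe set. Most coloured points lie at the dim end, and *H2az2*, *Pnn* and *Tmed9* are the bright exceptions.

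*Hand2* itself was read by 3 probe sets that differed. The brightest had signals of 1214 in the wild-type and 1244 in Hand2NC, a log2 ratio of 0.04. The next had 67.1 and 314, a log2 ratio of 2.23, but both signals lay below the filter. The dimmest had 7.82 and 1.59. In the E12.5 heads the same probe sets had 592 and 839, 33.4 and 706, and 3.94 and 2.63. The second probe set was thus the one with clearly more signal in Hand2NC at both stages, although its wild-type signals were low. Which part of *Hand2* each probe set reads, and whether the transgene holds it, is not given in the sources used here, so the ratio of 0.04 by the brightest one is no measure of the overexpression.

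The largest difference in a highly expressed gene was that of *H2az2*, which encodes a replication-independent histone variant. Its brightest probe set had signals of 11446 in the wild-type and 6520 in Hand2NC, a log2 ratio of -0.81. A second probe set had 715 and 366, a log2 ratio of -0.97. Both probe sets were also lower in the Hand2NC heads at E12.5, where the log2 ratios were -0.74 (12140 and 7260) and -0.73 (901 and 545). Among the 2333 genes with a second probe set above the filter, *H2az2* was the 1 gene with both at least 1.5-fold the same way at E11.5. Its closest relative in the list of histone variants, *H2az1*, had 20575 and 17893 by the brightest probe set, a log2 ratio of -0.20, and 0.25 by the second. The other histone variants read by a bright probe set lay between -0.10 and 0.04, apart from *Macroh2a3* (below).

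*Pitpnc1*, which encodes a phosphatidylinositol transfer protein, and *Runx1t1*, which encodes a transcriptional corepressor, were higher in Hand2NC by both of their brighter probe sets. *Pitpnc1* had signals of 394 and 777, a log2 ratio of 0.98, and 502 and 679 by the second probe set, a log2 ratio of 0.43. *Runx1t1* had 1014 and 1831, a log2 ratio of 0.85, and 863 and 1138 by the second, a log2 ratio of 0.40. Another bright probe set of *Runx1t1* had 717 and 787, a log2 ratio of 0.13. The sizes thus differed by probe set in both genes, while the probe sets above the filter shared the sign. Those below the filter did not: *Pitpnc1* had 7 of them, with log2 ratios from -1.26 to 0.43 and the brightest near equal (400.2 and 412), and *Runx1t1* had 0.07, 0.32 and, at signals of 29.1 and 3.20, -3.18. At E12.5 *Pitpnc1* had log2 ratios of 0.26 and 0.13, and *Runx1t1* had -0.40 and -0.08. The brightest probe set of *Runx1t1* is of the _x_at type, whose probes may also bind other transcripts.

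Promoter sequences are shown for *H2az2* and *Pitpnc1*, as genes that 2 probe sets placed on the same side of the wild-type. *Csgalnact2* is shown as a gene higher in Hand2NC with a window that holds the E-box CATCTG. They are RefSeq windows on GRCm38.p6 from 250 bases before to 50 after the annotated start, and they were searched on both strands. Capitals mark each CANNTG, of which CATCTG (or its complement CAGATG) is one form. The *H2az2* window is chr11:6444394-6444693 on the minus strand, the *Pitpnc1* window chr11:107470671-107470970 on the minus strand, and the printed *Csgalnact2* window chr6:118139091-118139390 on the minus strand. *Csgalnact2* has another window, chr6:118138781-118139080, which is not printed and holds 1 CANNTG and no CATCTG.
*H2az2*: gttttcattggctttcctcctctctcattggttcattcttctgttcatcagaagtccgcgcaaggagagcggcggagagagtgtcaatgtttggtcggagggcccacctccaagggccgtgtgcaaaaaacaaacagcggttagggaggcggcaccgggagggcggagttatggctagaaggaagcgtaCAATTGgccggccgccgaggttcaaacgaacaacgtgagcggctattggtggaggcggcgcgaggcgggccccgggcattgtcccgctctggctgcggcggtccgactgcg
*Pitpnc1*: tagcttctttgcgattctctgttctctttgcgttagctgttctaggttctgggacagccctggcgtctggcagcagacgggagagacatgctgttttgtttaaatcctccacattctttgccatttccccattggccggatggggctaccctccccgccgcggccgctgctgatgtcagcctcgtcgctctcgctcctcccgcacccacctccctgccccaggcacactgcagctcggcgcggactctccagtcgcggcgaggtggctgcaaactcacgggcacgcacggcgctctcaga
*Csgalnact2*: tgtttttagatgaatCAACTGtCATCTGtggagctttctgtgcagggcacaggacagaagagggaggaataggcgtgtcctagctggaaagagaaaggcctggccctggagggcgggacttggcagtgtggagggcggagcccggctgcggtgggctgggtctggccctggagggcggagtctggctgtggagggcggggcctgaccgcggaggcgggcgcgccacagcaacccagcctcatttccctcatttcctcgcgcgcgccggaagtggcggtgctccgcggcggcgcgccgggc

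The *H2az2* window has 1 CANNTG and no CATCTG, the *Pitpnc1* window has neither, and the printed *Csgalnact2* window has 2 CANNTG, 1 of them CATCTG. Over all genes in the table CATCTG stands in a window of 19.2%, and over the genes above the filter it stands in 743 of 5953. Among genes at least 1.5-fold higher it was found in 3 of the 10 with a window, *Csgalnact2*, *Dhcr7* and *Gsn*, and among those lower in 1 of 13, *Glipr2*. A gene was counted if any of its windows matched, and *Csgalnact2*, *Dhcr7* and *Gsn* each also have a window without CATCTG. The looser CANNTG stands in 20265 of all 27025 genes and in 64.5% of those above the filter, against 5 of 10 and 9 of 13. A match describes the letters of a window and is not a site of binding.

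The remaining genes higher in Hand2NC were of mixed function. *Sec22c*, a gene of vesicle transport between the endoplasmic reticulum and the Golgi, had signals of 268 and 598, a log2 ratio of 1.16, and a dimmer probe set had 0.21. *Macroh2a3*, a macro-histone variant gene, had 837 and 1700, a log2 ratio of 1.02, while a dimmer probe set had -0.10. Both were thus past 2-fold by 1 probe set. *Nes*, which encodes the intermediate filament nestin of neural progenitors, had 807 and 1506, a log2 ratio of 0.90. Its second bright probe set had 690 and 672, a log2 ratio of -0.04, so the 2 readings of nestin did not point the same way.

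*Gsn*, which encodes the actin-severing protein gelsolin, had 1702 and 2635 by its brightest probe set, a log2 ratio of 0.63. Its 3 other bright probe sets had -0.12, -0.08 and 0.03. *Pnn*, which encodes the nuclear speckle protein pinin, had 2897 and 4440, a log2 ratio of 0.62, and 0.17 by the second probe set. Genes read by 1 bright probe set included *Csgalnact2*, an enzyme of chondroitin sulfate synthesis (493 and 890), *Dhcr7*, which encodes the enzyme of the last step of cholesterol synthesis (482 and 772), *Cmtm6* (523 and 794) and *Tox* (338 and 511). For *Gm11517*, *Odr4*, *4632427E13Rik* and *Fam171a2* the log2 ratios lay between 0.60 and 0.81. The second bright probe set of *4632427E13Rik* had 0.17. Dimmer probe sets had 489 and 487 for *Cmtm6*, -0.07 and 0.12 for *Tox*, 0.39 for *Odr4* and, at low signals, -0.55 and -1.03 for *Fam171a2*.

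The genes lower in Hand2NC were likewise of mixed function, and *Arhgap39*, which encodes a GTPase-activating protein, had the lowest ratio. It was read by a probe set of the _x_at type, whose probes may also bind other transcripts. Its signals were 1233 and 553, a log2 ratio of -1.16, whereas a dimmer probe set had 222 and 278. *Glipr2* had 1065 and 593, a log2 ratio of -0.85, and 518 and 518 by its second probe set. *Foxo3*, a forkhead transcription factor gene of the insulin and stress response, had 1642 and 977, a log2 ratio of -0.75, and 588 and 603 by its second. For these 3 genes the difference was seen by 1 probe set and not by the other. *Cap1*, which encodes an actin-binding protein, had 1329 and 775, a log2 ratio of -0.78, and a dimmer probe set had -0.30. *Tmed9*, a gene of cargo transport in the early secretory pathway, had 3773 and 2413, a log2 ratio of -0.64, and -0.18 by the second probe set. Genes read by 1 bright probe set included *Fmc1*, an assembly factor of mitochondrial ATP synthase (1491 and 884), *Nob1*, a nuclease of ribosome maturation (895 and 569), *Rce1*, a protease of prenylated proteins (561 and 368) and *Ints9*, a subunit of the Integrator complex (705 and 468). *Tcl1b3*, *Rexo1*, *Plpp5*, *Gpr19* and *Parp6* had log2 ratios between -0.77 and -0.59. Dimmer probe sets had -0.09 and 0.07 for *Rexo1* and, at low signals, -0.22 for *Gpr19* and -0.39 and 0.27 for *Parp6*. *Ubac2* and *Fbxw8*, at -0.59 each, were just past 1.5-fold, and *Gucy1a2* and *Pisd-ps3*, at -0.58 each, and *Colec12*, at 0.58, were just short of it.

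**Figure D2:**
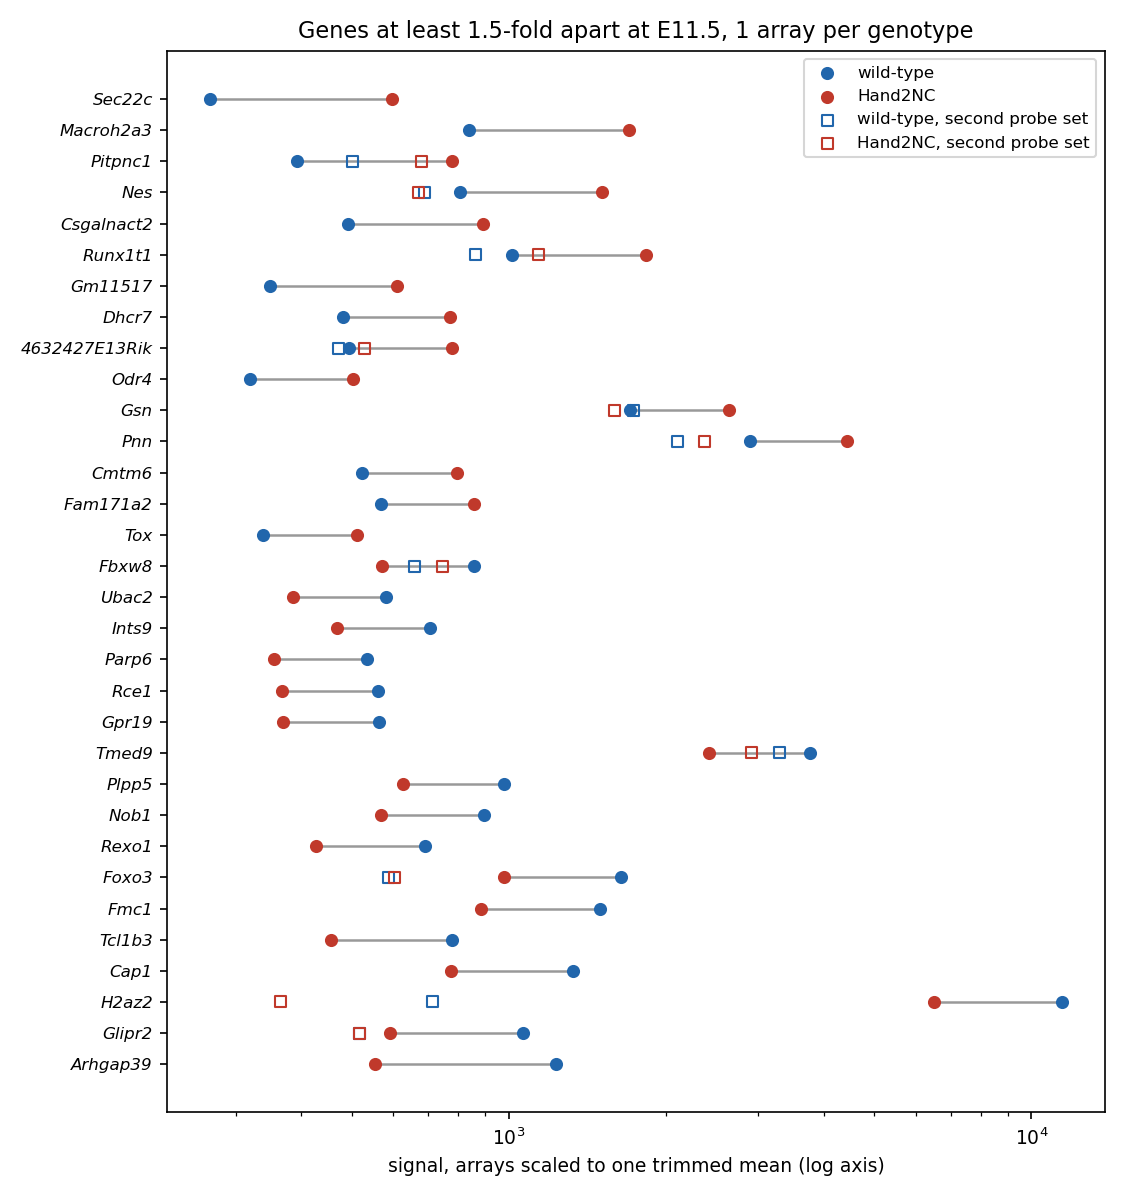
Signals (log axis) of the 32 genes at least 1.5-fold apart at E11.5, wild-type in blue and Hand2NC in red, with filled points and a line for the brightest probe set and open squares for a second probe set above the filter where there is one. The squares of *H2az2*, *Pitpnc1* and *Runx1t1* lie apart the same way as the points, whereas those of *Nes*, *Glipr2* and *Foxo3* nearly coincide.

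Second probe sets show how far a difference holds across readings of the same RNA, and so they check the probe and not the embryo pool. In the 2333 genes that have one above the filter, the log2 ratios of the 2 probe sets had a Pearson correlation of 0.15 and a Spearman correlation of 0.15 across genes, which are not independent replicates. The sign was the same in 1292 genes (55.4%). Of the 316 genes at least 0.32 apart on the log2 scale (4.37%), 92 had a second probe set, and 51 of these had the same sign (55.4%, Wilson 95% interval 45.3 to 65.2). Among the 2241 genes less than 0.32 apart the share was also 55.4%. A larger ratio by the first probe set thus went with no larger share of equal signs by the second. The second probe set was itself at least 0.32 away from 0 on the same side in 7 of the 92 and on the opposite side in 0. Among the 2241 genes less than 0.32 apart, these counts were 100 and 79.

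The same pairs of probe sets followed each other closely between the wild-type arrays of the 2 stages. Between the wild-type E12.5 heads and the wild-type E11.5 bodies, which differ in stage and in tissue, the Pearson correlation between first and second probe sets was 0.83, the Spearman correlation 0.70 and the share of equal signs 76.3%. Of 199 genes at least 1.5-fold apart there, 195 (98.0%) had a second probe set with the same sign. For Hand2NC against wild-type at 1.5-fold the numbers were 6 of 11 at E11.5 and 9 of 12 at E12.5. The typical gap between the 2 probe sets of a gene, a median of 0.13 on the log2 scale for the genotypes at E11.5 and of 0.14 for the stages, was about as large as the spread of all genotype ratios.

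**Figure D3:**
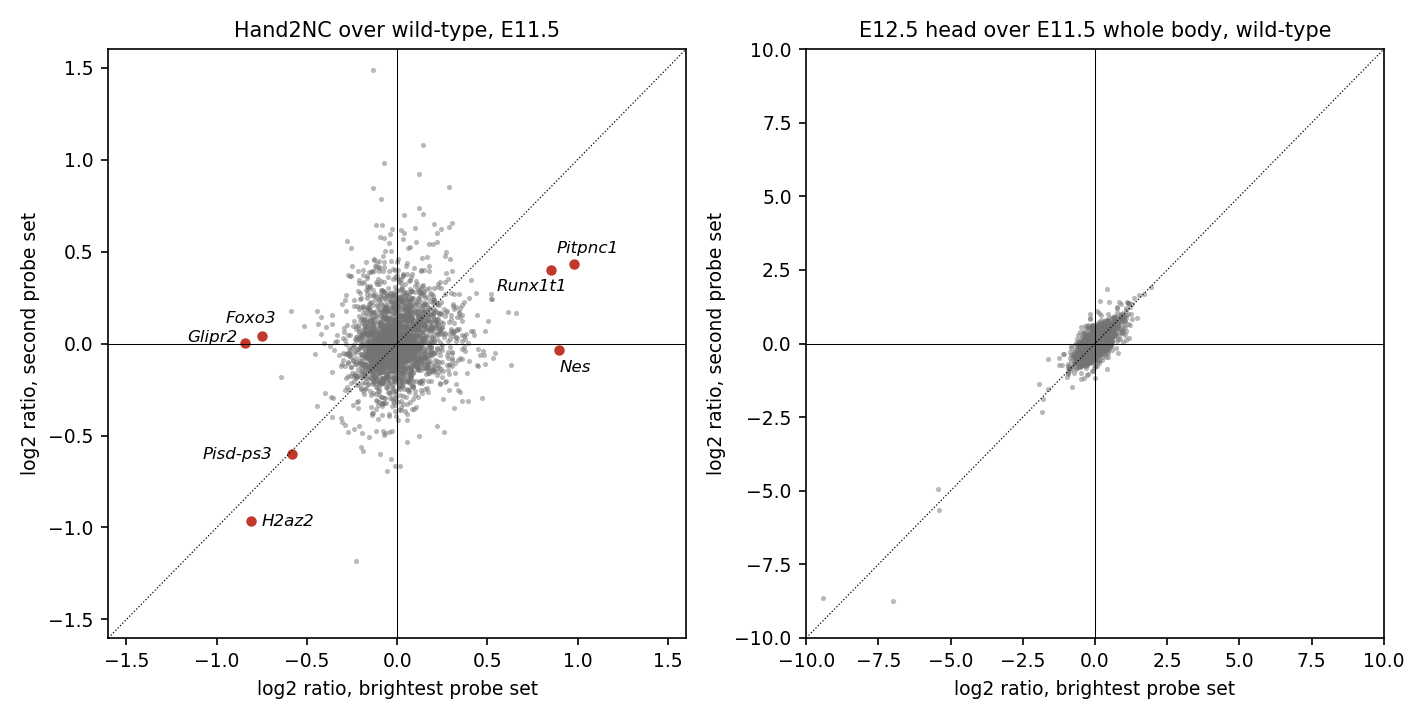
Log2 ratio by the second probe set against that by the brightest probe set for 2333 genes, for Hand2NC over wild-type at E11.5 (left) and for wild-type E12.5 head over wild-type E11.5 whole body (right); the axes have different ranges, and the dotted line marks equal ratios. On the left the cloud is round (Pearson 0.15) with *H2az2* and *Pisd-ps3* low on the dotted line, and on the right the points follow the line (Pearson 0.83).

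The 7 genes with both probe sets at least 0.32 apart on the log2 scale and of 1 sign were *H2az2*, *Pitpnc1*, *Runx1t1* and 4 genes that were singled out after their values were seen. *Pisd-ps3*, a pseudogene, had 1926 and 1288, a log2 ratio of -0.58, and 713 and 470 by the second probe set, a log2 ratio of -0.60. Since it may share sequence with its parent gene, its reading is uncertain. *Ide*, which encodes the insulin-degrading enzyme, had 1951 and 1436, a log2 ratio of -0.44, and -0.34 by the second. *Tmcc2* had 1125 and 875, a log2 ratio of -0.36, and -0.40 by the second, and it was lower in the E12.5 heads as well (-0.32 and -0.34). *D930016D06Rik* had 764 and 1014, a log2 ratio of 0.41, and 0.34 by the second. *Smarcb1*, a core subunit of a chromatin remodelling complex, showed the reverse case, with a brightest probe set at -0.13 and a second one at 1.49 (430 and 1208).

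Genes that the study examined at E11.5, most of them transcriptional regulators, differed by small amounts or by probe set. *Hif1a*, the oxygen-regulated factor, had 7859 and 7379, a log2 ratio of -0.09, and 0.22 by its second probe set. *Six4*, a homeobox gene, had 675 and 819, a log2 ratio of 0.28, and 0.35 by its second, but 593 and 401 by another bright probe set, a log2 ratio of -0.57. *Dner*, a gene for a neuronal Notch ligand, had 1546 and 1543, a log2 ratio of 0.00, and 0.35 by its second. The bright probe sets of *Six4* thus did not share a sign, nor did those of *Hif1a*. *Rsf1*, a chromatin remodelling gene, had 0.09, 0.41 and -0.19 by its 3 bright probe sets, and *Rb1cc1*, a gene of autophagy, had 0.02 and 0.12. *Hoxc8*, read by 1 probe set, had 937 and 1094, a log2 ratio of 0.22. *Runx1* and *Sfmbt2* were below the filter.

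Genes were then grouped by 44 lists of pathways, tissues and cell types. Of 722 list genes that passed the filter, 32 (4.43%) differed by 0.32 or more on the log2 scale, against 4.37% of all genes that passed it, and 4 differed 1.5-fold or more, *Macroh2a3*, *H2az2*, *Nes* and *Dhcr7*. In the 38 lists with at least 5 genes above the filter, the medians lay between -0.14 and 0.13. No list median reached 0.32 in size. Centring the arrays on their medians lowered every list, and it turned 12 medians below 0, those of the heart muscle (-0.03), skeletal muscle (-0.05), cartilage (-0.01), neuronal (-0.03), axon guidance (-0.05), sympathetic (-0.01), sensory (-0.02), Wnt (-0.03), BMP and TGF-beta (-0.02), cholesterol (-0.04), histone variant (-0.04) and chromatin (-0.03) genes.

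**Figure D4:**
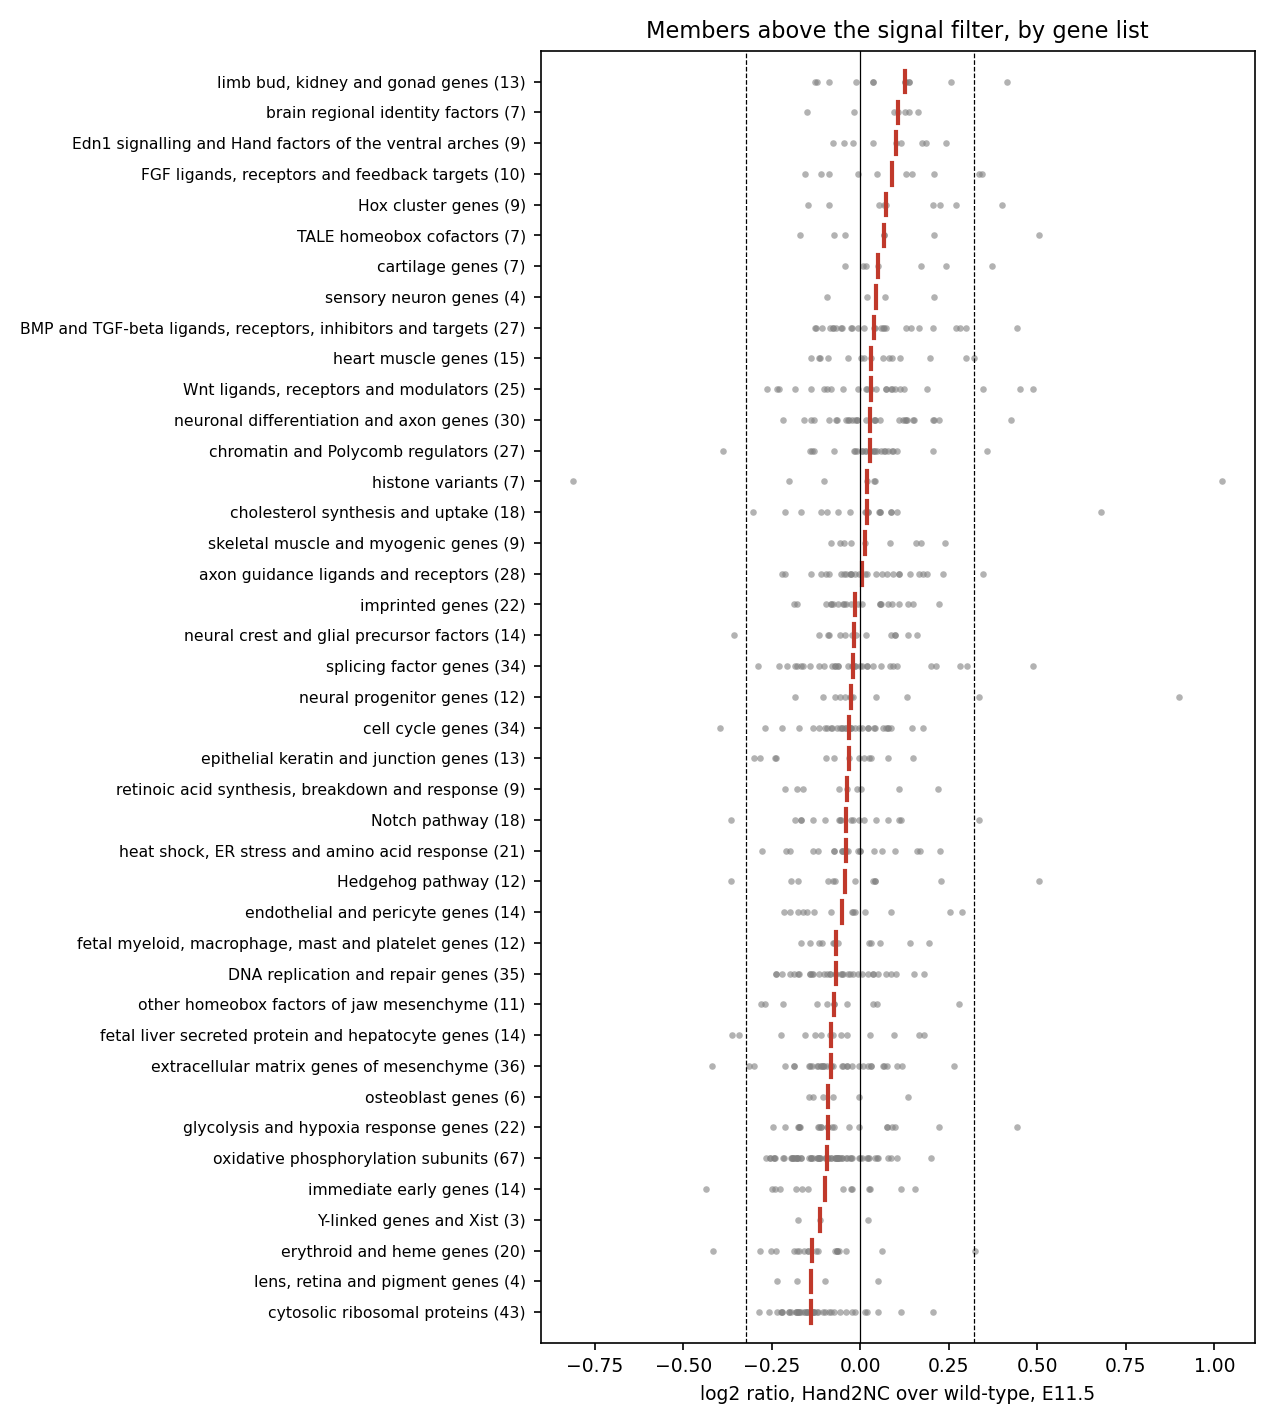
Log2 ratios of Hand2NC to wild-type at E11.5 for the members of each gene list above the signal filter (points; number of genes in brackets), with the list median as a red bar and dashed lines at 0.32 and -0.32. Medians run from -0.14 in the ribosomal protein genes to 0.13 in the genes of limb bud, kidney and gonad, and few points lie past the dashed lines.

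Genes that pattern the jaw differed by small amounts by their brightest probe sets. *Hand2*, at 0.04 by that reading, is counted among them although the value is no measure of its overexpression. Of 13 genes of endothelin signalling and the Hand factors, 9 were above the filter, 6 of them above 0 against 45.1% of all genes. Their median was 0.10, with 0 genes past 0.32 either way. *Ece1*, which encodes the enzyme that activates endothelins, had 612 and 724, a log2 ratio of 0.24. *Ednrb*, which encodes the B-type endothelin receptor, had 1773 and 2016, a log2 ratio of 0.19, and 0.09 by the second probe set. Both also had higher signals in the Hand2NC heads at E12.5 (0.13 and 0.14). *Plcb4*, the phospholipase downstream of the receptor, had 0.18 and *Gnaq*, its G protein, 0.10. The 6 Dlx genes were all below the filter. Of 20 other homeobox genes of jaw mesenchyme, 11 were above it. Of these, 3 were above 0 and 8 below, against 45.1% and 54.9% of all genes, with a median of -0.08. The lowest was *Prrx2* (783 and 644, -0.28), followed by *Msx2*, a BMP target (578 and 480, -0.27), and *Alx1*, a factor of the frontonasal process (686 and 590, -0.22), and the highest was *Six4*, whose bright probe sets differed in sign. *Msx2* had -0.21 in the E12.5 heads too. Of these 11 homeobox genes, 3 had a second probe set above the filter. All 3 second probe sets were above 0, with a median of 0.17, and the share over all second probe sets was not counted.

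Hox genes, which neural crest of the first arch lacks, and their TALE cofactors had medians just above 0. Of 33 Hox genes, 9 were above the filter, 7 of them above 0 against 45.1% of all genes, with a median of 0.07. *Hoxb3* had 1443 and 1903, a log2 ratio of 0.40, the one Hox gene past 0.32. *Hoxa5* had 1035 and 1248, a log2 ratio of 0.27, and 0.38 by its second probe set. *Hoxd13*, a gene of the distal limb bud and the tail, had 1092 and 1027. Of 7 TALE genes above the filter 4 were above 0, also with a median of 0.07, and of 4 second probe sets 2 were above 0 and 2 below. *Meis2* had 2855 and 4047, a log2 ratio of 0.50, but 0.12 by the second probe set, and the other 6 lay between -0.17 and 0.21. The medians of the TALE genes and of the Hox genes fell to 0.01 each with the arrays centred on their medians.

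In the signalling pathways single genes stood apart, while the medians stayed within 0.10 of 0. Some of these genes passed the filter only through the genotype in which they were brighter. This was Hand2NC for *Wif1*, *Foxf1* and *Smad7*, and the wild-type for *Sufu* and *Mfng*. Of 25 Wnt genes, *Wif1*, a secreted Wnt inhibitor, had 405 and 568 (0.49), *Dkk2*, another secreted modulator, had 1068 and 1458 (0.45), and *Axin1*, of the destruction complex of beta-catenin, had 562 and 714 (0.35). These were the 3 Wnt genes past 0.32 either way, all higher, and the list median was 0.03. *Tcf7l1* had a log2 ratio of -0.26, but 0.05 by its second probe set, *Fzd6* had -0.24 and *Sfrp2* -0.23, and by these brightest probe sets all 3 had negative ratios in the E12.5 heads as well (-0.48, -0.26 and -0.23). Of 10 FGF genes, *Fgfr1*, an FGF receptor gene, had 898 and 1133 (0.33) and *Il17rd*, a feedback inhibitor, 935 and 1185 (0.34), and the list median was 0.09. Of 12 Hedgehog genes, *Foxf1*, a target in visceral mesoderm, had 396 and 562 (0.51) and *Sufu*, an inhibitor, 580 and 451 (-0.36). The pathway's median, -0.04, gave no direction. Of 18 Notch genes, the target *Hes5* had 1304 and 1644 (0.33), but 0.03 by its second probe set, and *Mfng*, a glycosyltransferase of Notch, 500 and 388 (-0.37). Of 27 BMP and TGF-beta genes, *Smad7*, an inhibitory Smad, had 385 and 523 (0.44). *Tgfb2* had 1279 and 1574, a log2 ratio of 0.30, and 0.27 by its second probe set, and 0.27 in the E12.5 heads, so that its readings agreed in sign across probe sets and stages. *Bmp4*, an inducer of *Msx2*, had 902 and 1088 (0.27), and 0.31 at E12.5.

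By their brightest probe sets, neural crest and neuronal genes did not move as groups. Their second probe sets were more often above 0. These were 6 of 7 in the neural crest list (median 0.21) and 11 of 16 in the neuronal list (0.06). In the axon guidance list they were 11 of 12 (0.17). The share over all second probe sets was not counted. By the brightest probe sets, the share above 0 over all genes that passed the filter was 45.1%. Of 14 genes of the neural crest list above the filter, 6 were above 0 and 8 below, with a median of -0.02. *Twist1*, a mesenchymal factor, had 2094 and 2299 (0.13), and *Tfap2a* 504 and 563 (0.16). *Snai2*, a marker of migrating crest, had 4334 and 3993, a log2 ratio of -0.12, but 937 and 1463 by its second probe set, a log2 ratio of 0.64. *Itga4*, an integrin subunit, had 724 and 564 (-0.36), and 0.11 by its second. In both genes the 2 probe sets had opposite signs. Of 30 neuronal genes, 16 were above 0, with a median of 0.03. *Celf4* had 741 and 996 (0.43), but 0.04 by its second probe set, whereas *Stmn3* had 7462 and 6416 (-0.22), and -0.31 by its second. Of the axon guidance genes, 14 were above 0 and 14 below. *Epha7*, an ephrin receptor gene, had 1762 and 2238 (0.35), and 0.17 by its second probe set. Of the sympathetic neuron genes, 2 of 14 were above the filter, at 0.02 and 0.07, and of the sensory neuron genes 4 of 15 were.

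The marker genes of other tissues in the body differed little. Of 15 heart muscle genes, 10 were above 0, against 45.1% of all genes, with a median of 0.03. *Ttn*, which encodes titin, had 1330 and 1660 (0.32), *Myh7*, a myosin heavy chain gene, 1738 and 2135 (0.30), and *Tnnt2*, cardiac troponin T, 1807 and 2071 (0.20), with 0.18 by its second probe set. Other sarcomere genes lay on both sides of 0, from -0.14 in *Tnnc1*, a troponin gene, to 0.11 in *Myl3*, a myosin light chain gene. Of 14 liver genes, 10 were below 0, against 54.9% of all genes, with a median of -0.08. *Serpina1b*, a secreted protease inhibitor, had 1569 and 1220 (-0.36), with -0.15 by its second probe set. *Ttr*, the thyroid hormone carrier of liver and choroid plexus, had 9223 and 7901 (-0.22), with -0.32 by its second. *Afp*, the main secreted protein of fetal liver, had 17146 and 18323, so the liver genes did not move as one. In the list of limb bud, kidney and gonad genes, 9 of 13 were above 0, against 45.1% of all genes, with a median of 0.13. There *Sall1* had 453 and 603 (0.41) and *Tbx2*, a factor of heart and limb mesenchyme, 497 and 593 (0.26).

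Red cell genes had one of the lowest medians. Of 20 erythroid and heme genes above the filter, 18 were below 0, against 54.9% of all genes, with a median of -0.14. *Alas2*, which encodes the rate-limiting enzyme of heme synthesis in red cells, had 1069 and 801, a log2 ratio of -0.42. The embryonic globin genes *Hba-x* (23727 and 20936, -0.18) and *Hbb-bh1* (25003 and 22188, -0.17, and -0.24 by its second probe set) were also below 0, as were *Slc25a37*, the mitochondrial iron importer (-0.28), and *Tal1*, a blood lineage factor (-0.25). *Cpox*, another heme enzyme gene, had 525 and 656 (0.32). The summed signal of the list was 122848 in the wild-type and 112215 in Hand2NC. Of 6 second probe sets, 4 were below 0, and the share over all second probe sets was not counted. At E12.5 the genes still above the filter had a median of -0.11 with 8 of 12 below 0, against 45.1% of all genes there. The part that the blood content of the pools plays in other results was not tested.

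Most genes of the extracellular matrix list were below 0 by small amounts. Of 36 matrix genes above the filter, 26 were below 0, against 54.9% of all genes, with a median of -0.08. Among 18 second probe sets 17 were below 0, with a median of -0.08, and the share over all second probe sets was not counted. *Lum*, a proteoglycan of mesenchyme, had 4754 and 3819 (-0.32), *Col6a1*, a collagen gene, 871 and 707 (-0.30), *Dcn*, which encodes decorin, 2561 and 2251 (-0.19) and *Lama2*, a laminin subunit, 602 and 450 (-0.42). *Nid1*, a basement membrane gene, went the other way with 2647 and 3177 (0.26). In the E12.5 heads 27 of these 36 were below 0, against 45.1% of all genes there, with a median of -0.05. The cartilage list stood on the other side, with 6 of 7 above 0, against 45.1% of all genes, and a median of 0.05. *Sox6*, a factor of chondrocytes, had 797 and 1031 (0.37), but -0.02 by its second probe set, and *Col2a1*, the main cartilage collagen gene, had 2043 and 2113.

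Genes of ribosomes and respiration were lower in nearly all members. Of 43 ribosomal protein genes 38 were below 0, with a median of -0.14. Of 20 second probe sets 17 were below 0, with a median of -0.13, and the share over all second probe sets was not counted. *Rpl41* had 29410 and 24106 (-0.29), and -0.25 by its second probe set, but 0.13 without the ambiguous probe sets, those of the _a_at, _s_at and _x_at types, whose probes may bind several transcripts. *Rpl37* had 2860 and 3300 (0.21). Of 67 genes of oxidative phosphorylation 56 were below 0, with a median of -0.09, and *Ndufs8*, a subunit of the first respiratory complex, had 8216 and 6880 (-0.26), and -0.21 by its second. These lists are among the brightest, with 37 of the 43 and 64 of the 67 genes in the brightest of the 5 bins. In that bin, 959 of all 1448 genes (66.2%) were below 0, with a median of -0.05, against 54.9% over all bins. With quantile normalization the ribosomal median was -0.02 and 27 of 43 genes were below 0, and with loess it was -0.06 and 37 of 43 were. The respiratory median was -0.07 with quantile normalization, with 51 of 67 genes below 0, and -0.06 with loess, with 47 of 67. Centring on the array medians took it to -0.15, with 63 of 67, against 70.1% of all genes below 0 under that centring. At E12.5 the ribosomal genes had a median of -0.03 and the respiratory genes one of 0.03, with 14 of 65 below 0, against 45.1% of all genes there. The size of both medians thus moved with the scaling, and the cause was not tested.

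**Figure D5:**
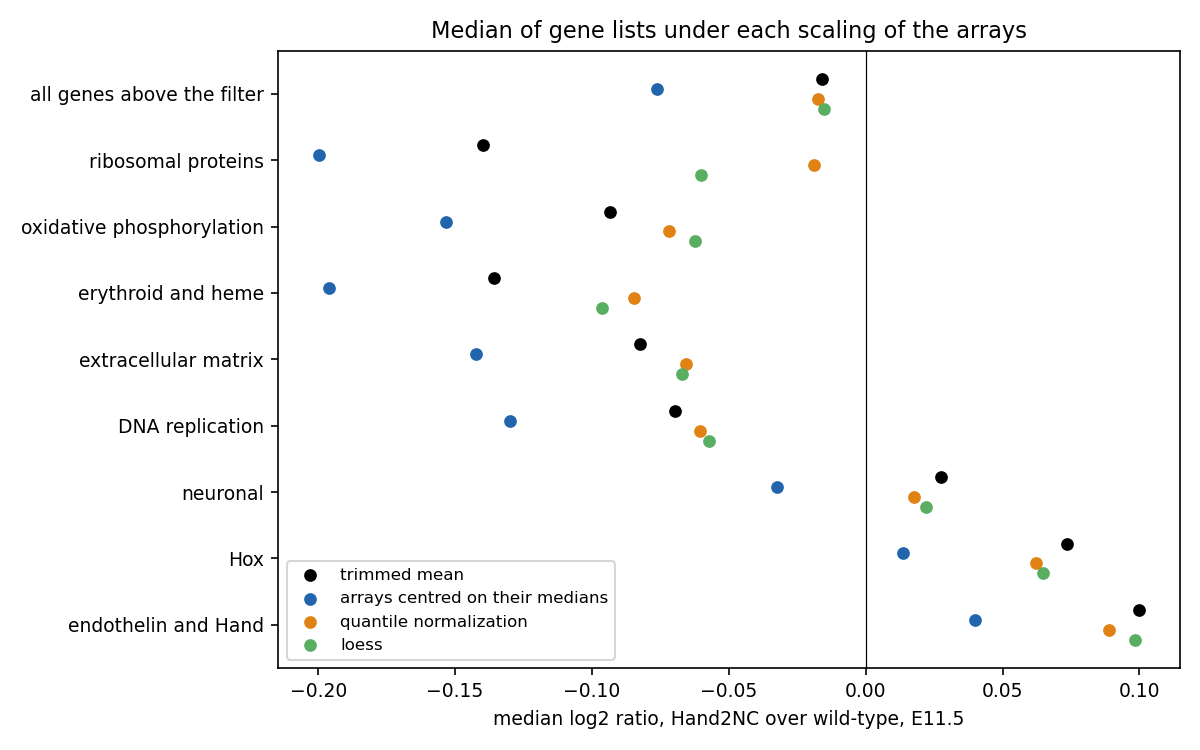
Median log2 ratio of Hand2NC to wild-type at E11.5 (horizontal axis) for all genes above the filter and for 8 lists, under 4 ways of scaling the arrays (colours). The ribosomal protein genes move most, from -0.20 with centring on the array medians to -0.02 with quantile normalization, whereas the erythroid genes lie between -0.20 and -0.08.

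Proliferation and metabolic lists held few single genes apart. The counts by the brightest probe sets below stand beside 54.9% below 0 and 45.1% above 0 over all genes that passed the filter. Of 35 DNA replication and repair genes 25 were below 0, with a median of -0.07. Of 21 second probe sets, however, 14 were above 0, and the share over all second probe sets was not counted. *Pcna*, the sliding clamp, had 17234 and 14598 (-0.24). Of 34 cell cycle genes 22 were below 0, with *Cdk2*, a kinase of S phase entry, the lowest (2083 and 1581, -0.40). Of 27 chromatin genes 19 were above 0, with *Tet1*, a DNA demethylation enzyme gene (722 and 925, 0.36), and *Cbx2*, a Polycomb subunit (756 and 578, -0.39), the 2 past 0.32 either way. *Cbx2* had -0.30 at E12.5. Of 18 cholesterol synthesis genes *Dhcr7* alone was past 0.32 either way, and *Hsd17b7* had -0.30. Of 14 immediate early genes 10 were below 0, among them *Socs3* (590 and 436, -0.44) and *Egr1* (567 and 477, -0.25), with a median of -0.10. *Pdk1*, which restrains pyruvate entry into mitochondria, had 989 and 1344 (0.44) with 0.15 by its second probe set. Among splicing genes *Srsf10* had 4841 and 6786 (0.49), but -0.11 by its second, and the nuclear RNA *Malat1* had 8564 and 10559.5 (0.30), and 0.39 by its second, but -0.05 without ambiguous probe sets. *Xist* and the Y-linked *Eif2s3y* and *Kdm5d* were near equal, at -0.18, 0.02 and -0.11.

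The genotype differences at E11.5 had little in common with those at E12.5. The stages share no array, but they differ in tissue. At E12.5 the Y-linked *Kdm5d* (677 and 8.72, -6.28) and *Eif2s3y* (956 and 14.4, -6.06) were near absent in Hand2NC, and *Xist* was higher (8988 and 16187, 0.85). For every E12.5 genotype ratio given here, genotype and the sex of the pooled embryos thus cannot be told apart. Over 6874 genes above the filter at both stages, the log2 ratios of the stages had a Pearson correlation of -0.04 and a Spearman correlation of -0.07. Of the 25 genes at least 1.5-fold apart at E11.5 that were also above the filter at E12.5, 12 had the same sign there. Of the 25, 4 were at least 0.32 apart with the same sign there, and 2 others were so with the opposite sign. The 4 were *H2az2*, *Gsn* (0.48 at E12.5), *Dhcr7* (0.34) and *Fmc1* (-0.43), and the 2 were *Runx1t1* and *Tox*. For *Gsn* this held by its brightest probe set, of the _x_at type, whereas its other bright probe sets had -0.09, -0.37 and -0.16 at E12.5. Of all differences at E11.5, that of *H2az2* was the one at least 1.5-fold by both probe sets at both stages.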

How the data were processed

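The authors deposited 1 linear intensity per array for each of 45101 probe sets; MAS5 is the tool named by the submitters' processing notes, with no version given. Total RNA of wild-type and Hand2NC embryos was pooled and hybridised to 1-colour Affymetrix GeneChip mouse genome arrays, 1 array per genotype and stage. On every array the deposited intensity values had a 2% trimmed mean of 498. Detection calls, aligner and probe positions were not used here, and 0 array columns were left out.

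After removal of 64 control probe sets, the arrays were brought to one 2% trimmed mean (500) and log2-transformed. Gene symbols came from the platform annotation, updated by gene identifier through RefSeq (GRCm38.p6). Of 45037 probe sets, 34945 had 1 symbol, 932 had several and 9160 had none, and the latter 2 kinds were not used for genes. For 34741 the identifier matched, and 0 symbols changed. A second probe set is the next brightest one of a gene that also met the 75th percentile filter. The call is a log2 ratio of 0.32 or a fold of 1.5 or 2 (the last is the study's), since no test is possible with 1 array per group. Intervals of shares are Wilson intervals and cover counting error only. Array medians at E11.5 were 97.2 and 101, a shift of 0.06 on the log2 scale.

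The genes named are *Hand2*, the genes the study examined at E11.5, the 15 largest rises and falls, genes past 1.5-fold with a second probe set past 0.32 on the log2 scale with the same sign, and, in each list, up to 4 members with the largest ratio and up to 3 of the best known. Genes at the edge of a threshold, *Pisd-ps3*, *Ide*, *Tmcc2*, *D930016D06Rik* and *Smarcb1* were named after their values were seen. Members, lists and settings were chosen with earlier results of these data known. Promoters came from RefSeq: 5953 of 7237 genes had a window among 32851. The counting was tested on simulated data. Alternatives were unscaled signals, median centring, quantile normalization, loess (span 0.3), filters at the 50th and 90th percentile or on both arrays, the mean over probe sets, the brightest probe set on the E11.5 arrays alone, leaving out ambiguous probe sets (_a_at, _s_at and _x_at), and a call from any probe set. Python 3.11.15 was used with matplotlib 3.10.9, statsmodels 0.14.6, scipy 1.17.1, pandas 2.3.3 and numpy 2.4.6.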

Additional observations from a re-analysis of the deposited data

Results flagged for a closer look

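By their brightest probe sets, *Runx1t1* and *Tox* lay on opposite sides of the wild-type at the 2 stages. *Runx1t1* had a log2 ratio of 0.85 at E11.5 and -0.40 at E12.5. Its other bright probe sets had 0.40 and 0.13 at E11.5, and were near 0 at E12.5 (-0.08 and -0.04). *Tox*, which encodes an HMG-box factor, had 0.59 and -0.38. Its other probe sets, below the filter, did not show this, with -0.07 and 0.12 at E11.5 and 0.01 and 0.21 at E12.5. Each stage has 1 array per genotype and the tissue differs, so the difference between the stages was not tested.

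Among the probe sets that carry no symbol or several, which the comparison leaves out, 934 lay above the filter. Of these, 15 (1.61%) were at least 1.5-fold higher in Hand2NC and 1 (0.107%) lower. Among the probe sets with 1 symbol above the filter, the shares were 0.525% and 0.272%. Of the 934, 1 was at least 2-fold higher. That probe set, of the _x_at type, had signals of 213 and 504, a log2 ratio of 1.24, and -0.06 at E12.5.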

How the results depend on the processing

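Counts at 1.5-fold and 2-fold depended mostly on the filter and on the probe set. The 15 genes higher and 17 lower at 1.5-fold, and the 2 and 1 at 2-fold, became 173 and 170, and 21 and 32, with the filter at the 50th percentile, and 4 and 2, and 1 and 0, with the filter at the 90th. With both arrays at or above their 75th percentile there were 7 higher and 10 lower at 1.5-fold and 1 higher at 2-fold. With a call from any probe set there were 55 and 28, and 5 and 3. Without ambiguous probe sets 19 were higher and 10 lower at 1.5-fold, among them 20 of the 32 genes, 1 was higher at 2-fold, *Gsn* turned to -0.12 and *Foxo3* to 0.038. Centring on the array medians left 1 gene higher at 2-fold and 27 of the 32 genes past 1.5-fold, and took the share of equal signs among second probe sets to 65.3%. Quantile normalization kept 29 of the 32 and loess 30. Of the list medians under all alternatives, 396 moved by less than the spread of their members and 1 by more. The cause of these changes was not tested. No paired analysis was possible because each group has 1 array, and for the same reason no replicate could be left out. Signals near the filter, where the spread was widest, limit what the counts can show.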

Other observations

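Probe sets of the _x_at type, whose probes may bind several transcripts, made up 984 of the 11603 probe sets above the filter at E11.5. Of these 984, 23 (2.34%) were at least 1.5-fold higher in Hand2NC and 6 were lower. Of the 7581 _at probe sets, 40 (0.528%) were higher and 15 lower. Among the genes past 1.5-fold, 3 of the 15 higher and 3 of the 17 lower were read by an _x_at probe set, against 410 of all 7237 genes. *Macroh2a3*, *Runx1t1* and *Gsn* were the 3 higher ones, and *Arhgap39*, *Tcl1b3* and *Tmed9* the 3 lower ones. The part of this in the differences was not tested.

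Some lists had another sign in the E12.5 heads than in the E11.5 bodies. Of the DNA replication genes above the filter at both stages, 4 of 34 were below 0 at E12.5, with a median of 0.11, against 45.1% of all genes above the filter at both stages. Of the 30 neuronal genes 28 were below 0 at E12.5, with a median of -0.15.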
